A study of Macaca mulatta with 56 samples.

Results

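The amygdala was compared with the prefrontal cortex of the same animals, in 28 of the 56 messenger RNA libraries of a study of old female rhesus macaques (Macaca mulatta). The comparison was limited to rows (gene identifiers) of the expression table whose mean log2 level over hippocampus, occipital cortex and prefrontal cortex lay within 2 of that over the amygdala, which held for 13520 of 17807 rows (75.93%). Of these, 13495 had a mean of at least 10 normalized reads over the 28 libraries and were tested, and 25 were not. A gene symbol was paired with 11889 of the tested rows. The limit is needed because many identifiers hold another transcript in the amygdala libraries than in the others, as described below, and it leaves out every row whose amygdala level differed more than 4-fold from that of the other 3 regions.

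The 14 animals were 19.4 to 23.2 years old, lived in pens of 3 to 4, and ate a Western-style diet with 36% of its calories from fat. About 6 weeks after the diet began, ovaries and uterus were removed from all of them (OvH). Capsules with estradiol were given to 7 animals from then on (HT), and their serum estradiol was 82.1 pg/mL; the 7 animals called OvH here received empty capsules and had 6.6 pg/mL. The series text gives both 30 and 32 months for the exposure. There were no animals with intact ovaries or on chow, so both regions were seen only in aged animals on this diet without ovaries. About 30 mg of pulverized tissue was used per region, and the amygdala was not divided into its nuclei.

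The amygdala is a group of nuclei deep in the temporal lobe that attaches emotional value to stimuli and drives fear and reward responses. Its basolateral nuclei hold cortex-like glutamatergic projection neurons, and its central and medial nuclei hold GABAergic projection neurons that resemble those of the striatum. The prefrontal cortex is a layered cortex that serves planning and the control of such responses, and the basolateral nuclei and the prefrontal cortex project to each other. Both regions carry receptors for estradiol.

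Levels are upper-quartile normalized reads, and differences are log2 differences of the value plus 1, amygdala minus prefrontal cortex, averaged over the OvH and the HT animals. A difference was called at an adjusted p under 0.05 in a limma model that blocked on the animal. Reads per library ran from 42.18 to 93.34 mega-reads in amygdala and from 39.1 to 90.2 mega-reads in prefrontal cortex, and did not differ between the regions beyond the spread of the pairs (mean paired difference -0.88 mega-reads, exact sign-flip permutation p = 0.886, two-sided, 14 pairs). The normalized totals did differ. In mega-reads they averaged 66.2 ± 6.52 in amygdala and 58.6 ± 1.3 in prefrontal cortex (SD, n = 14), and were higher in amygdala in 13 of 14 animals (exact sign-flip permutation p = 0.000977). Samples of one animal went together: over the 3995 consistent rows defined below, each of the 14 amygdala libraries correlated best with the prefrontal library of its own animal, and 12 of the 14 prefrontal libraries with the amygdala library of theirs. Animals 32 (OvH) and 40 (HT) stood apart in prefrontal cortex, with weights of -0.63 and -0.54 on the first principal component against -0.15 to 0.26 in the others. In amygdala animal 32 stood apart (-0.64), while animal 40 (-0.39) was nearer to the others (-0.24 to 0.34).

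The rows outside the limit showed how the table is disturbed. Of the 4287 rows outside it, 2792 (65.13%) stood in 1396 pairs of adjacent rows whose amygdala and other levels fitted each other crosswise, so that the identifiers looked exchanged between neighbours. Whether a row held the same transcript on both sides was looked at in the same libraries. The limit used their means, and this check used how the animals deviated from those of their group. For rows with a mean of at least 100 reads, the deviations of the 14 animals from their group means in amygdala were correlated with those in prefrontal cortex. The mean correlation was 0.505 over 2905 rows with a gap of at most 0.25 between amygdala and the other regions, 0.363 over 1535 rows with a gap of 1 to 1.5, 0.243 over 471 rows with a gap of 1.5 to 2, and 0.001 over 2908 rows with a gap over 5. These correlations are across animals within a row, and rows are not independent replicates. Over the consistent rows defined below the mean fell too, from 0.502 with a gap of at most 0.25. It was 0.365 with a gap of 1 to 1.5 and 0.32 with a gap of 1.5 to 2. Rows with a crosswise fit, by the rule given below, had 0.359 and 0.193 with these gaps. The cause of the fall was not tested, and differences close to the limit may not be those of the named gene.

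**Figure D1:**
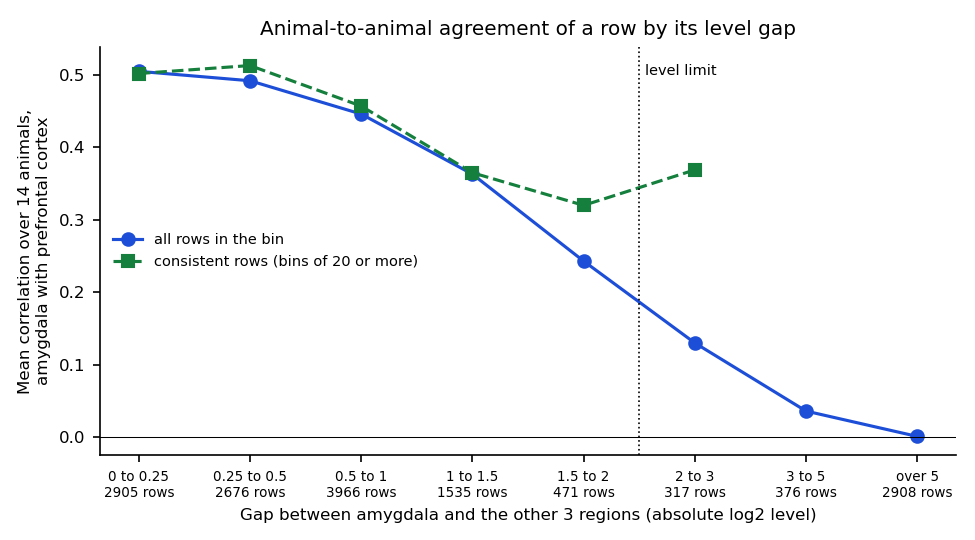
The mean correlation over 14 animals between a row's amygdala and prefrontal deviations (vertical axis) is plotted against bins of the gap between the row's amygdala level and that of the other 3 regions (horizontal axis, absolute log2), for all rows with a mean of at least 100 reads (circles) and for consistent rows in bins of 20 or more (squares). The correlation falls from 0.505 in the first bin to 0.001 in the last, and is 0.243 for all rows and 0.32 for consistent rows just inside the level limit (dotted line).

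A stricter set was used beside the tested rows. A row was called consistent when the amygdala and the other regions correlated at 0.8 or above over its 20 neighbours in the table, and when exchanging its amygdala level with that of a row at most 5 places away did not improve the fit by more than 1.5 on the log2 scale. The second condition was chosen after the data were seen. It rests on the gap between amygdala and the other regions, so only rows with a sizeable gap can have a crosswise fit. Dropping such rows therefore takes out large differences and tends to bring a list's median nearer to 0. A smaller median without them is no check of the list. There were 3995 consistent rows among the tested rows. A gene named below has a neighbour correlation of at least 0.8 unless another value is stated, and a crosswise fit is mentioned where there was one. The last members inside the limit were SLC35G2 (difference 1.99, neighbour correlation -0.10), INSM2 (-2.17, neighbour correlation 0.44, crosswise fit) and SLC4A11 (-2.58), and the first outside it were SPINT1, EIF3D and PCYOX1L, with neighbour correlations of 0.96, 0.21 and 0.04 and a crosswise fit in all 3.

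Most tested rows differed between the regions. The test called 10610 of 13495 rows (78.6%), of which 5332 (39.5%) were higher and 5278 (39.1%) lower in amygdala. In the consistent rows 77.1% were called, 38.5% in each direction. Without animals 32 and 40 the test called 10430 rows, 5200 of them higher and 5230 lower. Over the tested rows the median absolute difference was 0.58 and the median difference was 0.005. All but the outer tails (5th to 95th percentile) lay between -1.41 and 1.31. The level limit narrows this spread, since it was set on the same amygdala levels and left out the 4287 rows with the larger gaps. The sizes are therefore those of the tested rows only. A difference of at least 2-fold was called for 1505 rows higher (11.2%) and 1661 rows lower (12.3%) in amygdala, and in the consistent rows for 19.9%, with 9.41% higher and 10.5% lower. Within the OvH animals alone 67.3% of rows were called, and within the HT animals 71.9%. The 14 animals went in the same direction in 38.9% of rows, and the 2 regions did not overlap in 11.9%, with amygdala above in 6.09% and below in 5.8%. Among the tested rows 23.5% lay over 1 apart between amygdala and prefrontal cortex, against 7.55% between hippocampus and prefrontal cortex and 7.52% between occipital and prefrontal cortex. Of all rows, 75.38% lay within 2 of the prefrontal level in amygdala, against 98.06% in hippocampus and 98.67% in occipital cortex. Still, 1996 of the tested rows had a crosswise fit. Region and exchanged identifiers cannot be told apart in this contrast. With a share of called rows this high, a single call says little, and each gene list below is to be read against 39.5% higher and 39.1% lower. Scaling the libraries to equal totals, in place of equal upper quartiles, moved the median by -0.164 and gave 4325 rows higher and 6222 lower, so that differences nearer to 0 than this have no sure sign.

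Neuronal markers were abundant in both regions, but they are found throughout the forebrain and do not tell these regions apart. Pan-neuronal SNAP25, a protein of synaptic vesicle fusion, had a median of 194000 in amygdala and 206000 in prefrontal cortex (difference 0.00 ± 0.09, SE; neighbour correlation 0.01). SLC17A7, the vesicular glutamate transporter of cortical projection neurons, had medians of 60000 and 82500, and GAD1, which makes GABA, of 13200 and 16300 (neighbour correlation 0.08). These 3 genes were chosen after their values were seen. Rows of several defining markers lay outside the limit and could not be compared: MBP and MAL of myelin, GFAP of astrocytes, CAMK2A and NEUROD6 of cortical projection neurons, PENK of striatal-type neurons, LHX6 and LAMP5 of interneurons, and ESR1 and PGR, the main estrogen and progesterone receptors.

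Genes of neurons in general were mostly lower in amygdala. Of 18 tested pan-neuronal markers 12 were lower and 3 higher (median -0.56), and the list's median was below 0 in all 14 animals. In the 7 OvH animals it ran from -0.84 to -0.03 (median -0.20), where the values nearest to 0 have no sure sign. In the 7 HT animals it ran from -1.23 to -0.52 (median -0.62). Of the 18 rows 2 had a lower regional difference in HT than in OvH and 0 a higher one. Over all rows these shares were 1.97% lower and 5.31% higher. With equal totals 11 of the 18 had a lower one, and without the animal block 0. The lower rows over all rows also rose with equal totals and fell without the block, as given below. In bulk tissue, fewer cells of a type and less of its RNA per cell cannot be told apart. DNM1, the dynamin of synaptic vesicle recycling, ran from 20600 to 65700 (median 37200) in amygdala and from 50600 to 91100 (median 72400) in prefrontal cortex, a difference of -0.89 ± 0.09 (adjusted p = 8.03e-08). It was lower in amygdala in all 14 animals, although the regions overlapped. SYT1, the calcium sensor of vesicle release, and NEFM, a neurofilament subunit, each differed by -0.90. STMN2, a regulator of microtubules in growing neurites, went the other way: it ran from 54500 to 115000 (median 82200) in amygdala and from 34300 to 57000 (median 43200) in prefrontal cortex, and was higher in 14 of 14 animals (0.93 ± 0.08, adjusted p = 1.02e-08).

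The markers of cortex-like excitatory neurons were divided. Of 39 such genes 12 lay outside the limit, 1 was too low, and of the 26 tested 17 were lower and 8 higher in amygdala (median -0.58). Among the 8 consistent rows 6 were lower and 2 higher. NEUROD2, a transcription factor of glutamatergic neurons, ran from 388 to 1360 (median 913) in amygdala and from 1390 to 2770 (median 2030) in prefrontal cortex, and the highest amygdala library lay below the lowest prefrontal one (-1.14 ± 0.10, adjusted p = 4.52e-09). NRGN, neurogranin, which binds calmodulin in dendritic spines, was lower in all 14 animals with an overlap (medians 30300 and 73500, difference -1.27 ± 0.09). SLC17A7 differed by only -0.38 ± 0.06, in the same direction in all 14 animals. TBR1, a transcription factor of deep-layer neurons, stood at 1180 to 3430 against 4730 to 8130 (difference -1.66), in a row with a crosswise fit.

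Some genes of this list were higher in amygdala. ZFPM2, a cofactor of GATA factors, had medians of 1450 and 793 and was higher in 12 of 14 animals (0.81 ± 0.13, adjusted p = 1.75e-05). Larger differences of both signs stood in less certain rows. ZFPM2 and the genes of these rows were chosen after their values were seen. SLC17A6, the second vesicular glutamate transporter, was higher in 14 of 14 animals (difference 2.45) in a row with a neighbour correlation of -0.21 and a crosswise fit. RORB, a nuclear receptor of cortical layer IV, was lower in all 14 animals (difference -2.81, neighbour correlation 0.76), as was CUX2, a factor of upper cortical layers (-2.39, neighbour correlation 0.19, crosswise fit).

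Striatal-type projection neurons are known from the central amygdala, but their tested markers did not lean towards this region: 4 of 21 were higher and 10 lower in amygdala (median -0.30). Without rows that had a crosswise fit 3 were higher and 6 lower (median -0.12, of no sure sign). A further 4 rows of this list, PENK among them, lay outside the level limit and could not count in either direction. TAC1, the precursor of substance P, ran from 1300 to 5350 (median 2810) in amygdala and from 1250 to 2160 (median 1530) in prefrontal cortex. It was higher in amygdala in 11 of 14 animals, with overlapping ranges (0.76 ± 0.12, adjusted p = 9.59e-06). PPP1R1B, the dopamine-regulated phosphatase inhibitor of striatal neurons, had medians of 12300 and 13600 and a difference of -0.13 that did not pass, and was chosen after its values were seen. TSHZ1, a factor of intercalated and striatal neurons, was lower in all 14 animals (-1.41) in a row with a crosswise fit.

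Of 24 tested markers of GABAergic interneurons 15 were lower and 4 higher in amygdala (median -0.43). CALB1, the calcium buffer calbindin, ran from 2770 to 6970 (median 4650) in amygdala and from 884 to 2020 (median 1490) in prefrontal cortex. All amygdala libraries lay above all prefrontal ones, and the difference was 1.65 ± 0.10 (adjusted p = 6.04e-11). In hippocampus its median was 5000 and in occipital cortex 930, so that only the hippocampus came near the amygdala. KCNC1, the fast potassium channel of parvalbumin neurons, showed the reverse: it ran from 747 to 2280 (median 1090) in amygdala and from 2260 to 5530 (median 3890) in prefrontal cortex, and was lower in all 14 animals (-1.73 ± 0.10, adjusted p = 6.78e-11). SLC32A1, the vesicular GABA transporter, was lower in 12 of 14 animals (-0.83). Of the peptides that divide interneurons, SST, somatostatin, was higher in amygdala in all 14 animals (medians 6820 and 5060, difference 0.62 ± 0.11). NPY, neuropeptide Y, had medians of 6050 and 1520 and was also higher in all 14 (1.92 ± 0.11), in a row with a neighbour correlation of 0.32. VIP differed by -0.17 and did not pass. SST, NPY and VIP were chosen after their values were seen.

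**Figure D2:**
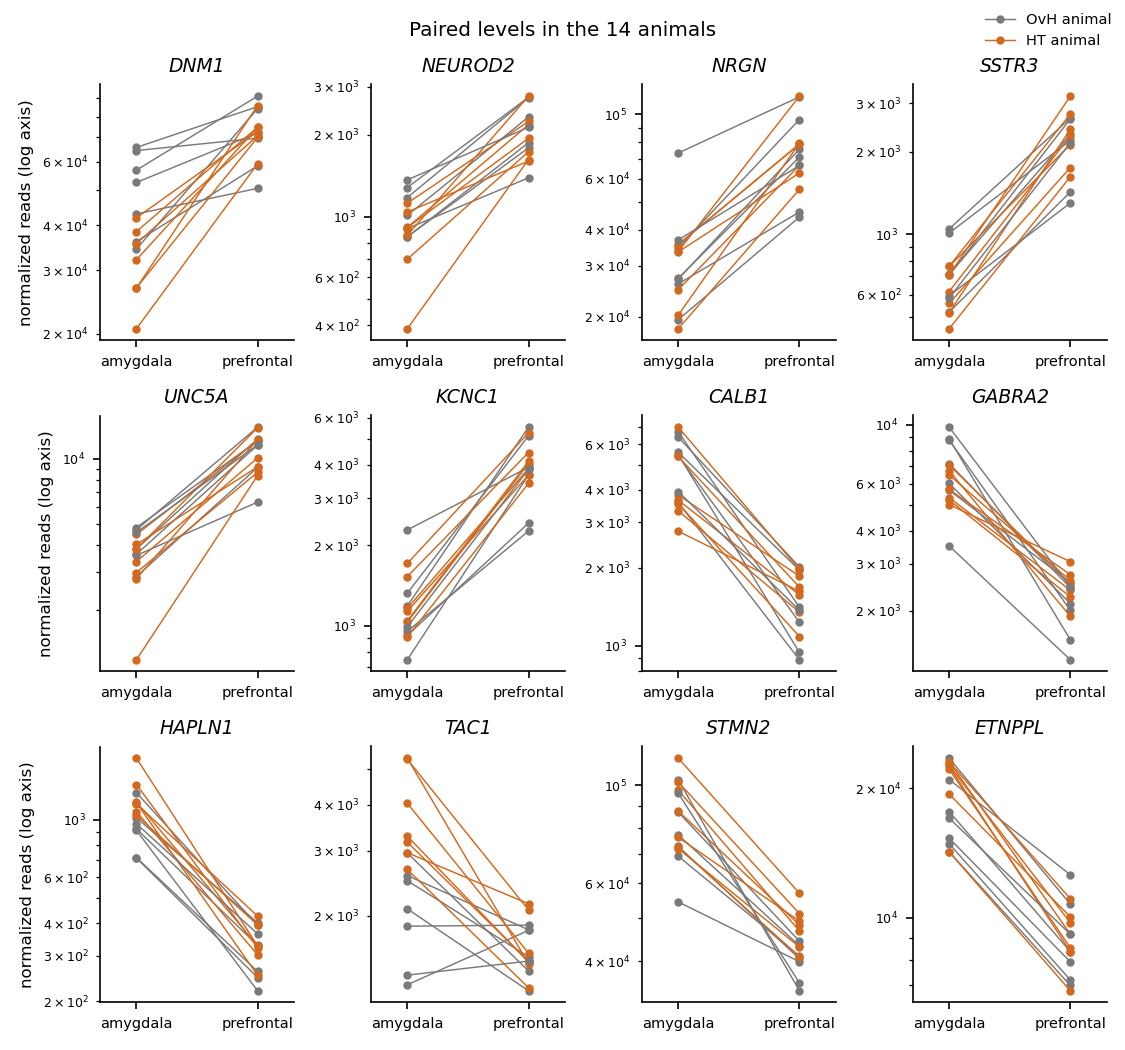
Normalized reads (log axis) of 12 genes are plotted in amygdala and prefrontal cortex, with a line for each of the 14 animals, in grey for OvH and in orange for HT. NEUROD2, SSTR3 and UNC5A are lower in amygdala without overlap, DNM1, NRGN and KCNC1 are lower with an overlap, and CALB1, GABRA2, HAPLN1 and ETNPPL are higher without overlap. TAC1 is higher in 11 and STMN2 in 14 of 14 animals, both with an overlap.

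Among the peptide signalling genes the receptors leaned lower, while the precursors as a group did not lean. Of 18 tested precursors 7 were higher and 7 lower, near the shares over all rows (39.5% and 39.1%). Their median was -0.02, of no sure sign, and 0.67 over the 5 consistent rows, 4 higher and 1 lower. Of 23 tested receptors 6 were higher and 15 lower (median -0.59). Without rows that had a crosswise fit 4 were higher and 11 lower (median -0.38). Among the precursors, SCG2, secretogranin II, ran from 13800 to 47300 (median 26900) in amygdala and from 7520 to 19400 (median 14300) in prefrontal cortex, and was higher in 12 of 14 animals (0.92 ± 0.17, adjusted p = 0.000101). CHGB, chromogranin B of the same granules, was higher in 12 of 14 animals too (0.67). NPPC, the precursor of C-type natriuretic peptide, was lower in all 14 (-1.19).

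SSTR3, a somatostatin receptor of neuronal cilia, ran from 451 to 1040 (median 662) in amygdala and from 1300 to 3190 (median 2240) in prefrontal cortex. The regions did not overlap, and the difference was -1.69 ± 0.08 (adjusted p = 8.59e-12). Both receptors of melanin-concentrating hormone were lower in amygdala in all 14 animals. MCHR1 had medians of 851 and 2030 (difference -1.22 ± 0.09). MCHR2 ran from 10.8 to 219 (median 47.0) against 260 to 760 (median 529), without overlap, and had the largest difference of the genes named inside the level limit (-3.37 ± 0.31, adjusted p = 1.74e-08). AVPR1A, a vasopressin receptor, was low in both regions (medians 12.2 and 24.3, difference -0.82).

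Of 18 tested genes for steroid and thyroid hormone receptors and enzymes 10 were lower and 3 higher in amygdala (median -0.46). The glucocorticoid receptor NR3C1 ran from 2430 to 4630 (median 3890) in amygdala and from 4160 to 6660 (median 5070) in prefrontal cortex, lower in all 14 animals with a small overlap (-0.47 ± 0.07, adjusted p = 5.65e-06). ESRRA, an orphan receptor of energy metabolism, did not overlap (medians 1330 and 2780, difference -1.02 ± 0.08), and VDR, the vitamin D receptor, was low and differed by -1.77. The second estrogen receptor ESR2 had medians of 27.3 and 32.4 (difference 0.01 ± 0.22, adjusted p = 0.971). It did not pass, and it was chosen after its values were seen.

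Transmitter receptors were lower in amygdala more often than higher. Of 35 tested genes for serotonin, dopamine, adrenergic and acetylcholine signalling 22 were lower and 10 higher (median -0.56). CHRM3, the muscarinic M3 receptor, ran from 55.3 to 494 (median 183) in amygdala and from 274 to 2620 (median 1590) in prefrontal cortex, and was lower in all 14 animals although the ranges overlapped (-2.69 ± 0.13, adjusted p = 6.63e-12). The nicotinic subunit CHRNA4 (-1.89) and the acetylcholine-degrading enzyme ACHE (-0.80) were lower too, in 14 and 13 of 14 animals. TH, the first enzyme of dopamine synthesis, differed by -0.56 and was lower in 10 of 14 animals, and did not pass without animals 32 and 40.

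For GABA receptors, 8 of 16 tested genes were lower and 4 higher in amygdala (median -0.14, of no sure sign). GABRA2, the alpha-2 subunit of the GABA-A receptor, ran from 3500 to 9800 (median 6250) in amygdala and from 1310 to 3060 (median 2410) in prefrontal cortex. No library of one region reached into the range of the other (1.5 ± 0.10, adjusted p = 2.9e-10). GABBR2, a subunit of the metabotropic GABA-B receptor, had medians of 4240 and 13700 and was lower in all 14 animals (-1.58 ± 0.12). For glutamate receptors and their scaffolds, 17 of 32 tested genes were lower and 5 higher (median -0.25). Of the 9 consistent rows 4 were lower and 1 higher (median -0.14, of no sure sign). CACNG8, an auxiliary subunit of AMPA receptors (-1.20), and DLGAP2, a scaffold of the postsynaptic density (-1.08), were lower in all 14 animals. GRM2, a presynaptic metabotropic receptor, differed by -2.05 without overlap, in a row with a crosswise fit.

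The release machinery of the synapse was among the lists with the lowest medians. Of 30 tested genes for presynaptic vesicle release 22 were lower and 3 higher in amygdala (median -0.83), the 8 consistent rows were all lower, and the list's median was below 0 in all 14 animals, from -1.23 to -0.20. SYT2, the fast calcium sensor of some inhibitory terminals, ran from 216 to 1110 (median 491) in amygdala and from 323 to 2270 (median 1720) in prefrontal cortex (-1.28 ± 0.17, adjusted p = 1.33e-06). SYN1, synapsin I, chosen after its values were seen, had medians of 22300 and 44500 (-0.94 ± 0.08). Both were lower in each of the 14 animals, with overlapping ranges.

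Ion channel genes were mostly lower as well. Of 48 tested potassium channel genes 32 were lower and 8 higher in amygdala (median -0.69), and of 21 sodium and calcium channel genes 17 were lower and 3 higher (median -0.62). SCN8A and SCN1A, the pore subunits of sodium channels at the axon's initial segment, differed by -1.43 ± 0.12 and -1.39 ± 0.13. Both channels were lower in all 14 animals. Potassium channels higher in amygdala included KCNG3, a modulatory subunit (0.86), and KCNN2, a calcium-activated channel (0.74), which were picked from the list with their values known.

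The matrix and guidance genes held large differences of both signs. HAPLN1, the link protein that anchors proteoglycans to hyaluronan in perineuronal nets, ran from 712 to 1720 (median 1060) in amygdala and from 219 to 425 (median 327) in prefrontal cortex, without overlap (1.72 ± 0.09, adjusted p = 1.65e-11). Other matrix genes were lower, such as SPOCK2, a secreted proteoglycan (-0.78), and TNR, tenascin-R (-0.68, not passed without the animal block), and 8 of 15 tested genes of the list were lower and 4 higher. Of 36 tested axon guidance genes 24 were lower and 4 higher (median -0.65, and -0.20 over the 13 consistent rows). UNC5A, a netrin receptor, ran from 1180 to 4810 (median 3720) in amygdala and from 6300 to 14000 (median 11600) in prefrontal cortex (-1.62 ± 0.11, adjusted p = 2.35e-10). PLXNA1, a semaphorin receptor, had medians of 2730 and 7820 (-1.44 ± 0.08). Neither overlapped between the regions. SEMA3D, a secreted semaphorin, was the opposite: 74.3 to 630 (median 195) in amygdala against 18.0 to 73.0 (median 40.6), higher in all 14 animals without overlap (2.34 ± 0.20). Of 19 tested cadherins 5 were higher and 8 lower (median -0.02, of no sure sign, and -0.62 over the 5 consistent rows, 4 lower and 1 higher), among them PCDH9 (-0.68) and CDH11 (-0.62), adhesion molecules that were lower in all 14 animals.

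Activity-regulated genes also leaned lower: 13 of 22 tested were lower and 4 higher (median -0.56). Without rows that had a crosswise fit 7 were lower and 4 higher (median -0.18). Of the 3 consistent rows 1 was lower and 1 higher (median -0.05, of no sure sign). EGR3, an activity-induced transcription factor, had medians of 796 and 1640 and was lower in all 14 animals (-1.21 ± 0.14). BDNF, the neurotrophin, ran from 607 to 1550 (median 1180) in amygdala and from 359 to 990 (median 628) in prefrontal cortex and was higher in 12 of 14 animals (0.90 ± 0.14).

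**Figure D3:**
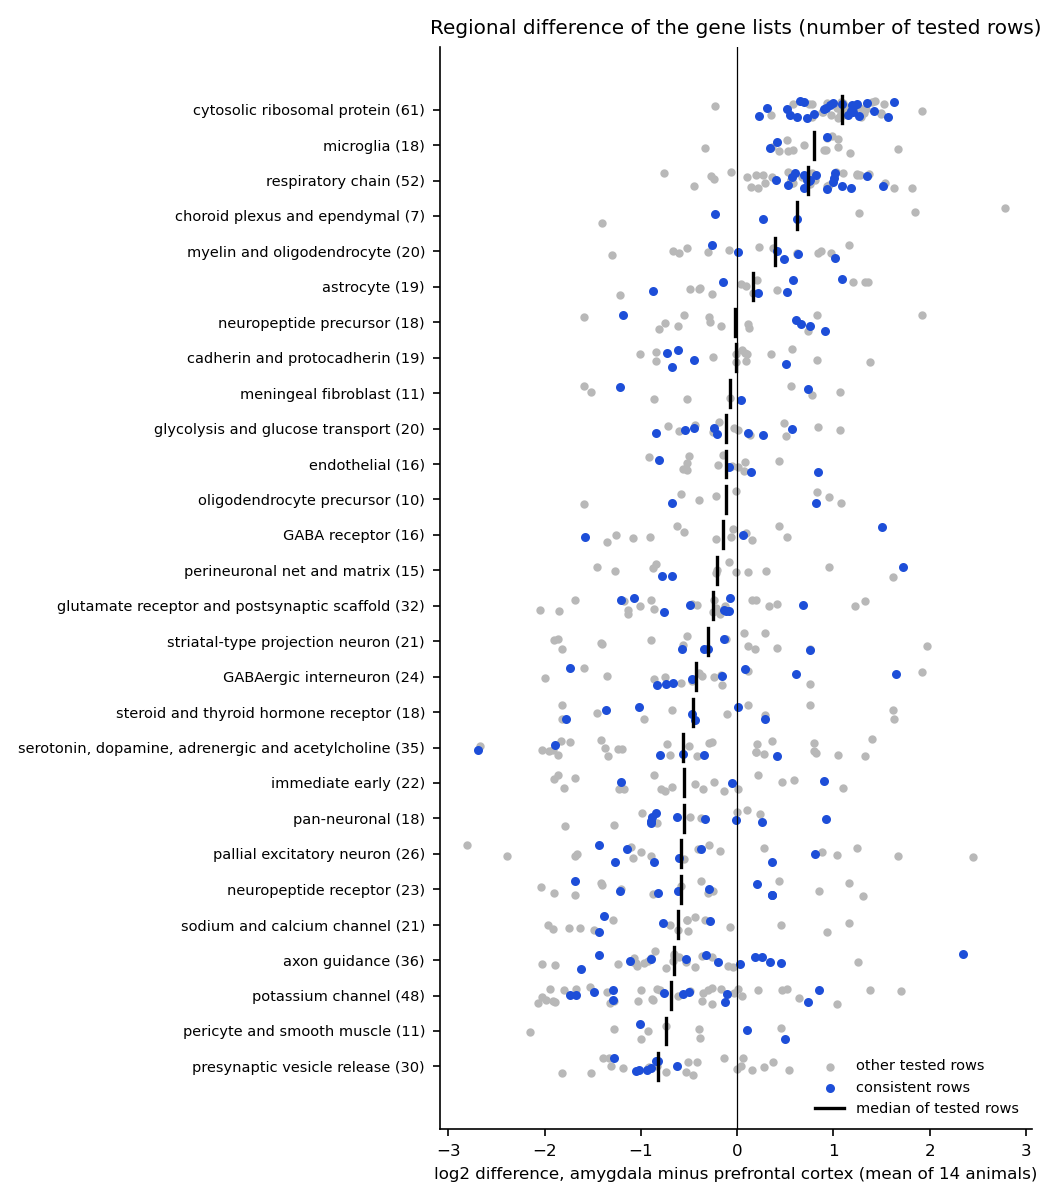
The log2 difference between amygdala and prefrontal cortex (horizontal axis) is plotted for each tested row of the gene lists with at least 5 tested rows, ordered by their median (black bar), with consistent rows in blue and other rows in grey. Ribosomal, microglial and respiratory chain genes lie at the top with medians of 1.09, 0.80 and 0.74, and presynaptic genes at the bottom with -0.83.

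Glial markers were higher in amygdala or mixed. Of 18 tested microglial genes 17 were higher and 1 lower (median 0.80), and the list's median was above 0 in 13 of 14 animals. With equal totals 14 were higher and 1 lower (median 0.63). Without rows that had a crosswise fit 14 were higher and 1 lower as well (median 0.58), and the median over the consistent rows was 0.41. Only 3 of these rows were consistent, all 3 higher: C1QB, a complement component (medians 4960 and 2460, 0.93 ± 0.09, higher in 14 of 14 animals), CD68, a lysosomal protein (0.41), and CSF1R, the receptor that keeps microglia alive (0.35). CD68 no longer passed with equal totals (0.25). P2RY12, the defining purine receptor of resting microglia, had medians of 2800 and 793 and no overlap (1.67) in a row with a neighbour correlation of 0.37. The exception was SALL1 (-0.34, neighbour correlation -0.24), a transcription factor of microglia. CSF1R, P2RY12 and SALL1 were chosen after their values were seen.

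Of 20 tested myelin genes 11 were higher and 4 lower in amygdala (median 0.39). With equal totals 9 were higher and 5 lower (median 0.23). Of the 6 consistent rows 4 were higher and 0 lower. ERMN, a late oligodendrocyte protein, ran from 11900 to 54700 (median 18700) in amygdala and from 4620 to 23800 (median 9150) in prefrontal cortex, higher in 12 of 14 animals (1.02 ± 0.16, adjusted p = 1.09e-05). Animals differed widely here: the list's median ran from -0.91 in animal 31 and -0.77 in animal 35 to 0.99 in animal 43.

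Of 19 tested astrocyte genes 8 were higher and 5 lower (median 0.16, and 0.00 with equal totals). ETNPPL, an enzyme of phosphoethanolamine breakdown in astrocytes, ran from 14200 to 23500 (median 20200) in amygdala and from 6770 to 12600 (median 8840) in prefrontal cortex. Its regions did not overlap (1.09 ± 0.05, adjusted p = 1.19e-11), and its medians in hippocampus (7800) and occipital cortex (7600) were near that of prefrontal cortex. ATP1B2, a sodium pump subunit of astrocytes, was lower in 13 of 14 animals (-0.88). Of 10 precursor-cell genes 4 were higher and 5 lower.

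Vascular and border markers were mixed and varied widely between animals. Of 16 endothelial genes 2 were higher and 6 lower (median -0.12), of 11 pericyte and smooth muscle genes 2 and 6 (median -0.74, but 0.10 over 3 consistent rows, 1 higher and 1 lower), and of 11 meningeal fibroblast genes 2 and 3 (median -0.07). PDGFRB, the receptor that recruits pericytes, had medians of 1150 and 2410 and was lower in 13 of 14 animals (-1.01 ± 0.12). Meningeal medians by animal spread from -2.02 in animal 38 to 3.16 in animal 42, and animal 42 also had the highest pericyte median (1.16). Summed over 3 consistent rows, the meningeal markers ran from 1460 to 23500 in amygdala and from 1700 to 4160 in prefrontal cortex. Of 7 choroid plexus and ependymal genes 4 were higher and 1 lower (median 0.62). Over the 3 consistent rows the median was 0.27, with 1 higher and 2 not passed. TTR, the transthyretin of choroid plexus, ran from 123 to 25000 in amygdala and from 34.4 to 615 in prefrontal cortex (neighbour correlation 0.57). It was chosen after its values were seen. The part of these tissues in the gene differences was not tested.

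The genes of protein synthesis and of oxidative phosphorylation were higher in amygdala. Of 61 tested rows for cytosolic ribosomal proteins 59 were higher and 0 lower (median 1.09), and of 25 consistent rows 24 were higher. The 2 rows that did not pass were RPL41 (-0.23) and RPLP2 (0.23), chosen after their values were seen. For 52 tested respiratory chain genes the counts were 45 higher and 3 lower (median 0.74), and all 18 consistent rows were higher. The lower ones included NDUFS7 of complex I (-0.76) and SDHA of complex II (-0.45), also chosen after their values were seen. RPS3A, a protein of the small subunit, ran from 78900 to 476000 (median 151000) in amygdala and from 39200 to 108000 (median 61100) in prefrontal cortex, and was higher in 13 of 14 animals (1.56 ± 0.15, adjusted p = 3.35e-08). RPS20 was higher in 13 animals as well (1.35 ± 0.15). Ribosomal protein genes have many processed copies, and 9 of the 61 rows carried a symbol that stands on more than 1 identifier, so that the split of reads between copies is uncertain. NDUFB5, a subunit of complex I, ran from 16400 to 56800 (median 29800) in amygdala and from 8120 to 13600 (median 11000) in prefrontal cortex without overlap (1.51 ± 0.12, adjusted p = 1.48e-09), and ATP5F1C, a subunit of ATP synthase, was higher in all 14 animals (1.35 ± 0.09). Glycolytic genes were divided: 6 of 20 were higher and 10 lower (median -0.11), with PGK1 higher (0.57) and the neuronal enolase ENO2 lower (-0.84), each in all 14 animals.

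The ribosomal difference depended on the treatment group. The list's median ran from -0.51 to 1.05 over the 7 OvH animals (median 0.41) and from 0.74 to 2.47 over the 7 HT animals (median 1.90). Amygdala minus prefrontal cortex was higher in HT than in OvH in 52 of 61 rows and lower in 0, against 5.31% and 1.97% of all rows. RPS27A, in the more abundant of its 2 rows, differed between the regions by 0.48 in OvH and 2.36 in HT (difference of differences 1.88, adjusted p = 0.011), and RPS20 by 0.52 and 2.18 (1.66, adjusted p = 0.011). In the respiratory chain 18 of 52 rows had a higher difference in HT and 0 a lower one, and with equal totals these counts were 16 and 6. NDUFB5 differed by 1.08 in OvH and 1.94 in HT (adjusted p = 0.0336), and lost this call when any 1 of animals 32 to 38, 41 or 42 was left out (adjusted p = 0.0592 to 0.0752). Of the presynaptic genes 6 of 30 had a lower amygdala level relative to prefrontal cortex in HT than in OvH, and none of the 6 passed without the animal block. These counts ran from 1 to 10 when any 1 animal was left out. TAC1 differed by 0.33 in OvH and 1.18 in HT (adjusted p = 0.0364), and did not pass without the animal block (adjusted p = 0.0893), with equal totals (adjusted p = 0.0633) or when any 1 of 8 animals (33, 34, 36, 37, 38, 41, 42 or 43) was left out.

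Over all rows the regional difference depended on treatment in 982 of 13495 rows (7.28%), 716 of them higher and 266 lower in HT. The normalized total of the amygdala libraries moved with this: it averaged 71.1 mega-reads in HT and 61.4 in OvH, against 58.7 and 58.5 in prefrontal cortex. Depth differed as well, with 53.1 mega-reads per amygdala library in HT and 65.2 in OvH, against 59.3 and 60.7 in prefrontal cortex. With equal totals the split turned to 510 higher and 1636 lower, while 51 of 61 ribosomal rows still had a higher difference in HT. The part of depth in the result was not tested. Without the animal block 228 rows passed, and 42 ribosomal rows were among them. Leaving out animal 36 left 402 rows and leaving out animal 30 gave 1534; the counts without animals 33, 34, 35, 37, 38, 41 and 42 lay between 477 and 601. Ribosomal rows with a higher difference in HT numbered 48 to 58 when any 1 animal was left out, and respiratory chain rows 9 to 30.

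**Figure D4:**
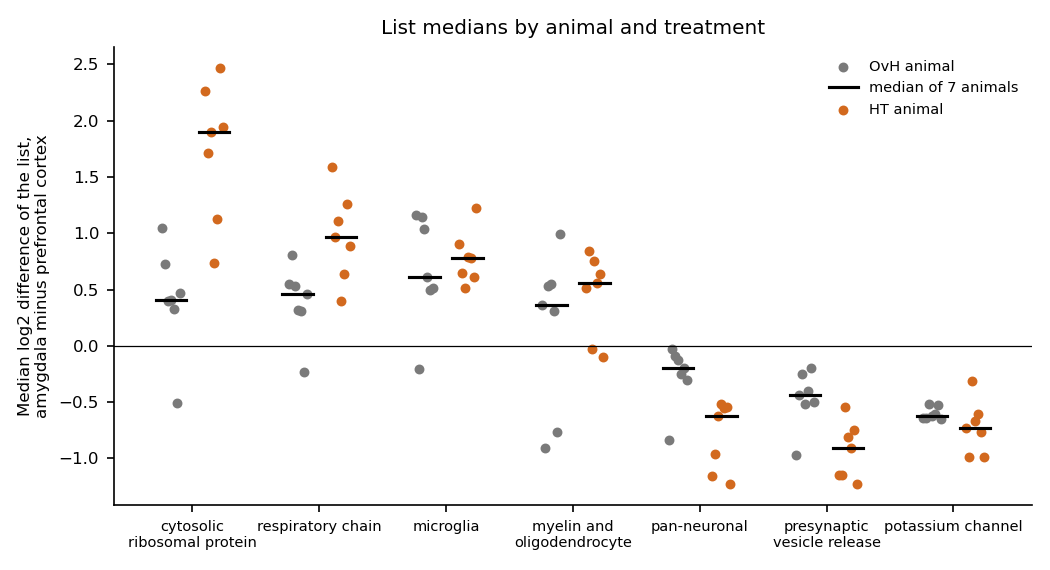
The median log2 difference of a gene list, amygdala minus prefrontal cortex (vertical axis), is plotted for each animal and 7 lists, with OvH animals in grey, HT animals in orange and the median of 7 animals as a black bar. Ribosomal medians lie between -0.51 and 1.05 in OvH and between 0.74 and 2.47 in HT, and presynaptic medians lie below 0 in all 14 animals.

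Outside the lists, the genes with the largest differences among rows with a neighbour correlation of at least 0.8 were mostly of low level. Highest in amygdala was AGR3, a protein disulfide isomerase of ciliated epithelia, with 142 to 935 (median 309) in amygdala and 26.8 to 90.2 (median 58.5) in prefrontal cortex. It did not overlap (2.66 ± 0.13, adjusted p = 1.01e-11, a 6.32-fold difference). SDR16C5, a retinol dehydrogenase, followed with 2.57 ± 0.16, but its median in occipital cortex (236) was above that in amygdala (175). KRT18, a keratin, had a difference of 2.49, and its highest library was one of hippocampus (1670). FST, follistatin, which binds activin, ran from 65.0 to 196 (median 135) against 13.0 to 48.7 (median 29.4), and its hippocampal median was 98.7 (difference 2.12 ± 0.16). WEE1, a kinase that holds the cell cycle, differed by 2.15, ARHGAP15, a regulator of Rac, by 2.07, PIH1D2 by 2.03 and NABP1, which binds single-stranded DNA, by 2.02. All 8 of these genes were higher in amygdala in all 14 animals. PCOLCE2, HYCC1, PCBD1, PYM1, VPS26A and COL25A1 reached 2.02 to 2.29 in rows with a crosswise fit.

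Lower in amygdala at a high level were ITPR1 and MPPED1. ITPR1, the calcium release channel of the endoplasmic reticulum, ran from 2300 to 8360 (median 5270) in amygdala and from 11700 to 47400 (median 34500) in prefrontal cortex, and its regions did not overlap (-2.59 ± 0.10, adjusted p = 1.43e-12). MPPED1, a brain metallophosphoesterase, ran from 1910 to 8420 (median 3180) against 13300 to 20900 (median 17300), again without overlap (-2.41 ± 0.15). PIDD1, a protein of the DNA damage response, had medians of 284 and 1470 (-2.43), and COL6A1, a collagen VI chain, of 151 and 986 (-2.40). The 15 largest also held MCHR2 and CHRM3, given above. The others were low: GSG1L2 (-3.33), NLRP6 (-2.88), SEC16B (-2.77), ABCC3 (-2.69), SLC4A11 (-2.58), GPR179 (-2.45), MUC3A (-2.44), CD101 (-2.41) and, with a crosswise fit, COL24A1 (-2.78). GSG1L2 was higher in amygdala in 1 of 14 animals, and the rest of the 15 were lower in all 14.

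Levels in the other regions were given for some of these genes as a reference. For ITPR1 the medians in hippocampus (10700) and occipital cortex (17300) lay between those of amygdala and prefrontal cortex. CHRM3 was likewise in between, with 652 and 622. SSTR3 and KCNC1 were above the prefrontal level in occipital cortex (3600 and 8610) and below it in hippocampus (1490 and 1900). HAPLN1 was below the amygdala level in both (502 and 396), as was GABRA2 (2530 and 1570). BDNF was highest in hippocampus (1810) and lowest in occipital cortex (293). MCHR1 was lower in hippocampus (389) than in amygdala (851). These regional levels are given as medians of 14 animals and were not tested.

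**Figure D5:**
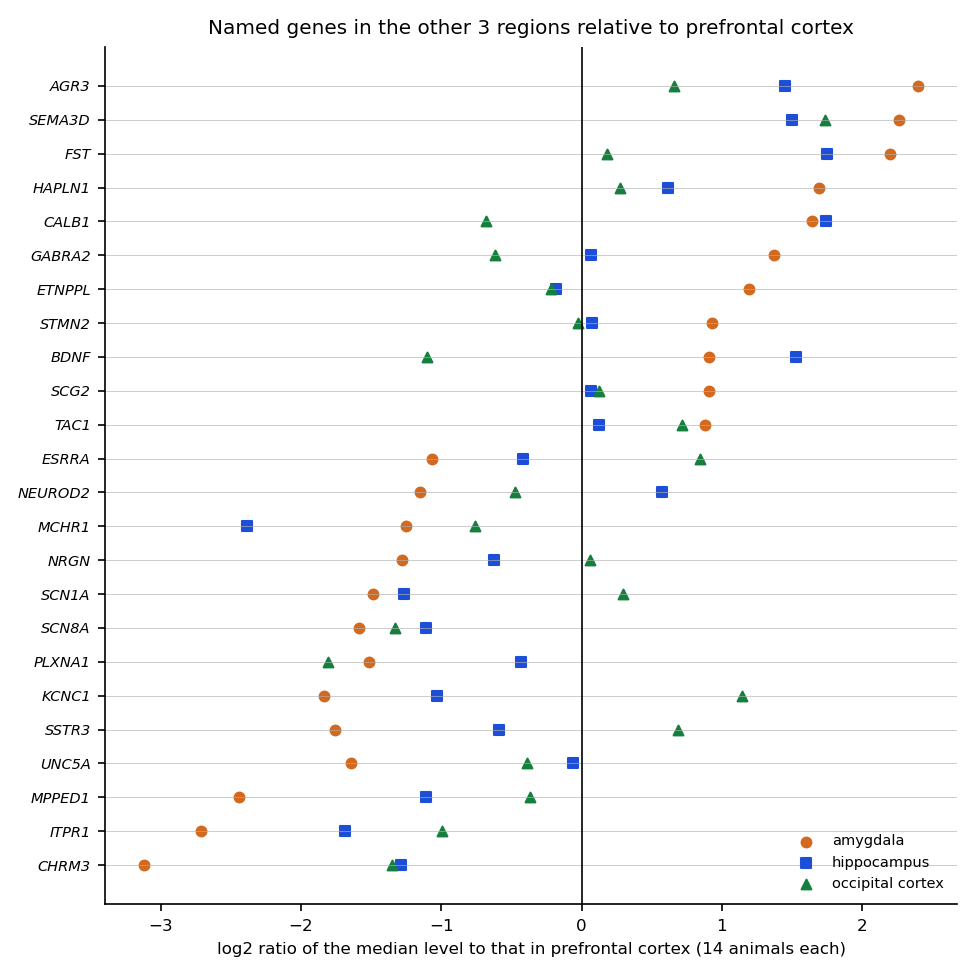
For 24 named genes the log2 ratio of the median level in amygdala (circles), hippocampus (squares) and occipital cortex (triangles) to that in prefrontal cortex is plotted, each over 14 animals. The amygdala lies farthest to the left for ITPR1 and CHRM3, and CALB1 is as high in hippocampus as in amygdala.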

How the data were processed

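Messenger RNA from 4 brain regions of 14 macaques was sequenced from stranded libraries as paired ends. Per the submitters' processing notes, reads passed through FastQC 0.1.1.2 and Trimmomatic, were aligned with STAR 2.7.3a to Mmul_10, and edgeR 3.28.0 was used; the counter, annotation and strand setting are not given in the sources used here. The authors deposited 1 table with a signal per identifier and library, upper-quartile normalized read counts. Whole reads were recovered from it by the step size (100% of values whole within 0.01).

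The main test was limma 3.58.1, run in R 4.3.3 on log2(value + 1) with its trend option, with terms for animal and for region by treatment, over 13495 rows with a mean of at least 10, with Benjamini-Hochberg adjustment. Fold changes are on that log2 scale and are understated for low genes. edgeR 4.0.16 on the recovered reads called 10580 rows (5216 higher, 5364 lower), and DESeq2 1.42.0 was run as well. The scripts were tested on simulated data.

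The animal numbers in the labels pair the regions: own-animal correlations of deviations ran from 0.27 to 0.833 (median 0.518) over 3995 rows, and 14 of 14 amygdala and 12 of 14 prefrontal libraries correlated best with their own animal. No 2 libraries of a group agreed within sampling noise (lowest chi-square per degree of freedom 35.9). Alternatives were another scaling, pseudocount, filter, level limit, tool and block, and each animal left out. Dropping rows with a crosswise fit, and leaving out animals 32 and 40, were chosen after seeing the data.

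The members and the gene lists were chosen with earlier results of these data known. Named genes with a neighbour correlation of at least 0.8 and an adjusted p under 0.05 were the 15 largest in each direction (symbol on 1 identifier, same direction in at least 13 of 14 animals, mean of at least 100 in the higher region) and up to 4 members of each list by absolute difference. The 3 rows nearest the level limit on each side were named whatever their correlation. Other genes are named as chosen after their values were seen. Some genes that the rule names are not reported here. No sequence or coordinate is printed, because the reference tables are of another assembly than Mmul_10 and were used for symbols only.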

Additional observations from a re-analysis of the deposited data

Results flagged for a closer look

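In 18 of 252 groups of 7 animals, 1 animal's log2 difference, amygdala minus prefrontal cortex, lay farther from the other 6 than the limit for 7 values allows (gap over range above 0.568). Chance gives about 1 such group in 20. Animal 39 (HT) stood out in 5 genes: MPPED1 (-0.97, others -3.07 to -2.25), NABP1 (1.26, others 2.30 to 2.78), SDR16C5 (1.19, others 2.46 to 3.30), ATP5F1C (0.99, others 1.48 to 1.78) and BDNF (-0.10, others 0.84 to 1.37). Animal 42 (HT), which had the highest meningeal marker median (3.16), stood out in ALDH1A2 (2.85, others -2.74 to -0.61) and CDH5 (1.23, others -1.79 to -1.16). Animal 35 (OvH) stood out in ARHGAP15 (0.51, others 1.53 to 2.23), PCDH1 (0.05, others -1.24 to -0.72) and UNC5A (-0.82, others -1.69 to -1.33), and animal 30 (OvH) in ENO2 (-1.10, others -0.65 to -0.35) and PIDD1 (-1.49, others -3.13 to -2.56). Single genes stood out in animal 40 (HT; ABCC3, -4.50, others -2.61 to -1.36), animal 34 (OvH; ESRRB, -3.24, others -1.60 to -0.38), animal 32 (OvH; PCBD1, 2.90, others 1.64 to 2.07), animal 41 (HT; SP9, 0.56, others -0.83 to -0.24), animal 38 (HT; TNC, -3.62, others -1.37 to -0.43) and animal 36 (HT; VPS26A, 1.80, others 2.09 to 2.28).

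The regional difference depended on treatment in 11 named genes by the limma interaction test. It was higher in HT for the ribosomal RPS27A by 1.88 (adjusted p = 0.011), RPS20 by 1.66 (adjusted p = 0.011) and RPS3A by 1.54 (0.79 in OvH, 2.33 in HT, adjusted p = 0.0115), and these passed in each of the 31 fits that tested them. HIGD1B, a pericyte gene, differed by -0.07 in OvH and 1.06 in HT (1.13, adjusted p = 0.0196). AGR3 (0.93, adjusted p = 0.0399), NDUFB5 (0.86, adjusted p = 0.0336), NDUFS4 (0.78, adjusted p = 0.03) and TAC1 (0.85, adjusted p = 0.0364) were higher in HT too. It was lower in HT for DNM1 (-0.67, adjusted p = 0.0372), SPOCK2 (-0.65, adjusted p = 0.0331) and TBR1 (-0.59, adjusted p = 0.0471). HIGD1B, AGR3, NDUFS4, TAC1, DNM1, SPOCK2 and TBR1 did not pass without the animal block. When 1 of the 14 animals was left out, the call was lost in 11 cases for TBR1, 10 for AGR3, 9 each for DNM1 and NDUFB5, 8 each for NDUFS4 and TAC1, 7 for SPOCK2 and 1 for HIGD1B. It was also lost with equal totals for TAC1 (adjusted p = 0.0633) and AGR3 (adjusted p = 0.0567), and with median centring for DNM1 (adjusted p = 0.0501) and TBR1 (adjusted p = 0.0559). Without the intensity trend NDUFB5, NDUFS4, TAC1, DNM1, SPOCK2 and TBR1 lost it (adjusted p = 0.0509 to 0.0711). With rows outside the level limit fitted too, NDUFB5, TAC1, TBR1 and AGR3 lost it (adjusted p = 0.0503 to 0.0665). TBR1 lost it with edgeR (adjusted p = 0.0502), and DNM1 and SPOCK2 lost it without animals 32 and 40 (adjusted p = 0.0574 and 0.0575).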

How the results depend on the processing

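The counts of rows called between the regions stayed within 1.5 times under each scaling, pseudocount, filter, tool and left-out animal tried. They fell where fewer rows were tested. With a neighbour correlation of at least 0.8 added to the level limit, 3291 rows passed (1639 higher, 1652 lower; 2826 within OvH, 3021 within HT). With that correlation in place of the limit, 3555 passed (1788 higher, 1767 lower; 3088 within OvH, 3284 within HT). Dropping rows with a crosswise fit left 8687 of 11499 rows called. Of 126 named genes 118 kept their call in each of the 32 settings in which their row was tested (stricter limits drop some of these rows), and TF, TNR, CD68, COL1A1, PDE10A, SP9, TH and NALCN lost it in at least 1.

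The dependence on treatment (982 rows, 716 higher and 266 lower in HT) moved far more, and the cause was not tested. It was 360 rows (246 higher, 114 lower) and 343 rows (242 and 101) under those neighbour settings, and 556 (348 higher) with levels within 1, where fewer rows were tested. It was 1538 (1111 and 427) with DESeq2, 1809 (1148 and 661) with array weights and 2146 (1636 lower) with equal totals. Lower rows numbered 141 without the intensity trend and 414 without replicates 32 and 40. Leaving out 1 animal gave 402 to 1534 rows, 316 to 1026 higher and 86 to 508 lower, the fewest without animal 36 and the most without animal 30.

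Without the replicate block, 228 rows depended on treatment (205 higher, 23 lower), and 9370 differed between the regions (4747 higher, 4623 lower), 7269 within OvH and 8041 within HT. Arms of 7 animals, and reads of 39.1 to 93.34 mega-reads per library, limit what can be seen in low rows. The level limit compares amygdala with the mean of the other 3 regions, so it drops some large and some small differences from prefrontal cortex and keeps others over 4-fold.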

Other observations

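The level limit left out 4287 rows, and 80 of them had a neighbour correlation of at least 0.8 and no crosswise fit. Some of these carried large differences, given here as values chosen after they were seen. They are not part of the comparison. Meeting both conditions does not make sure that such a row holds the named gene in amygdala. Higher in amygdala were DACH2, a transcriptional cofactor (medians 1430 and 45.7, difference 4.83), TRPC6, a cation channel (469 and 45.6, 3.47), GPR101, an orphan receptor (197 and 15.1, 3.72), HPGD, which degrades prostaglandins (289 and 31.4, 2.91), and RSPO3, an enhancer of Wnt signalling (2070 and 310, 2.50). NR2F2, a transcription factor of the developing amygdala and of interneurons, ran from 1430 to 2870 (median 1860) against 221 to 579 (median 406), and HTR2C, a serotonin receptor, from 632 to 4280 (median 1860) against 323 to 583 (median 468). In NR2F2 the animals' deviations in the 2 regions correlated at 0.13 and in HTR2C at 0.19. For DACH2 this was 0.20, for TRPC6 0.39, for GPR101 0.59, for HPGD 0.53 and for RSPO3 0.38.

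Lower in amygdala were CHRNA2, a nicotinic receptor subunit (2.95 to 21.4 against 121 to 563, difference -5.06), KCNS1, a modulatory potassium channel subunit (medians 110 and 2770, -4.91), CPNE9, a copine (362 and 2760, -3.09), and ATP2B2, a plasma membrane calcium pump (2250 and 14500, -2.53). The animals' deviations correlated between the regions at 0.86 for ATP2B2, 0.66 for CPNE9, 0.43 for KCNS1 and 0.38 for CHRNA2. FSHB, a pituitary hormone subunit, met both conditions as well (neighbour correlation 0.98). It was listed with medians of 2790 and 40.5, and its deviations correlated at -0.22.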
